A study of Mus musculus with 4 samples.

Results

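The 7 mouse genes described here encode the platelet-derived growth factor (PDGF) ligands Pdgfa, Pdgfb, Pdgfc and Pdgfd, the receptors Pdgfra and Pdgfrb, and the receptor-like protein Pdgfrl. Their binding sites were the peaks whose summit lay in the annotated span of a gene or within 50 kb of either end. This gave 34 of 21285 peaks in a list called list 1 and 46 of 21218 in list 2. The rule named the genes and used no peak value.

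The study asked which regulatory elements TEAD1, a DNA-binding partner of the coactivators YAP and TAZ in the Hippo pathway, occupies in cardiac fibroblasts of newborn mice. Cells overexpressing TEAD1 (genotype OE-TEAD1) and cells with the negative control of overexpression (genotype OE-NC) were each profiled by ChIP-seq, the sequencing of immunoprecipitated chromatin, with 1 ChIP library and 1 input library of sonicated chromatin per genotype. What was deposited is a pair of peak lists, each called with input as the control, and the labels tie neither list to a genotype. No effect of TEAD1 overexpression is therefore given, and with 1 library behind each list no difference could be set against a spread between cultures. The sources used here do not give the vector, the promoter that drives the construct, the antibody or the number of animals.

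PDGF ligands are secreted dimers that bind receptor tyrosine kinases on mesenchymal cells and drive their division and migration. The A and B chains are secreted in active form, whereas the C and D chains carry a CUB domain that a protease must remove outside the cell. Pdgfra is a widely used marker of cardiac fibroblasts, and Pdgfrb is best known from pericytes and smooth muscle cells. Peaks measure binding and not expression, so the label of the cells could not be checked by transcript levels. Sites were found near 5 of 6 fibroblast marker genes in each list, near 3 of 3 cardiomyocyte markers in list 1 and 1 of 3 in list 2, near 3 of 3 and 2 of 3 endothelial markers, and near 3 of 3 pericyte markers in each list. Among all 21631 protein-coding genes on the chromosomes with peaks, 58.2% had a site by the same rule in list 1 and 59.0% in list 2, so these counts say little about the cells.

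For each peak the authors' lists give the fold of ChIP fragments over the local background at the summit, and a −log10 q. The number of ChIP fragments and the background behind each fold were recovered from the deposited fold and p. The median peak of the whole list rested on 19 fragments in list 1 and 22 in list 2. Intervals of folds are exact Poisson 95% intervals of the ChIP fragment number. They cover counting error only, and reads without molecular identifiers may not be independent molecules. Coordinates are GRCm38, and the sites were not assigned to exons, introns or untranslated regions here.

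All 7 genes had a site in both lists. Over all protein-coding genes the shares were the 58.2% and 59.0% given above. The PDGF genes were longer than most, with a median span of 46.9 kb against 17.3 kb over all genes, so their windows covered more sequence. Within the gene span itself, 6 of 7 members had a summit in list 1 and 7 of 7 in list 2, against 20.7% and 20.8% of all genes. The member without one in list 1 was Pdgfb. The peaks merged into 51 separate sites, of which 28 were shared between the lists, while list 1 had 5 and list 2 had 18 of its own. Of the 51 sites 5 lay in the span of another protein-coding gene, and these cannot be assigned to the PDGF gene by distance.

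Pdgfc and Pdgfd had many sites and the other 5 genes had few. Pdgfc had 11 peaks in list 1 and 12 in list 2, and Pdgfd had 12 and 23. Pdgfrb had 4 in each list, Pdgfb 2 and 3, Pdgfa 2 in each, Pdgfrl 2 and 1, and Pdgfra 1 in each. Scaled by the length of its window, Pdgfc had 39.6 and 43.2 peaks per Mb, above 94.9% and 96.1% of protein-coding genes. Pdgfd had 25.8 and 49.4 per Mb, above 85.1% and 97.7% of genes. All Pdgfd peaks lay in a stretch of chromosome 9 with raised background, 2.77 and 5.72 times the lowest at their median. Of its 23 peaks in list 2, 12 were in that list alone, at 2.14 to 5.11-fold. The part of that background in the density was not tested. Pdgfra had 6.81 per Mb in each list, above 47.1% and 46.4%.

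**Figure D1:**
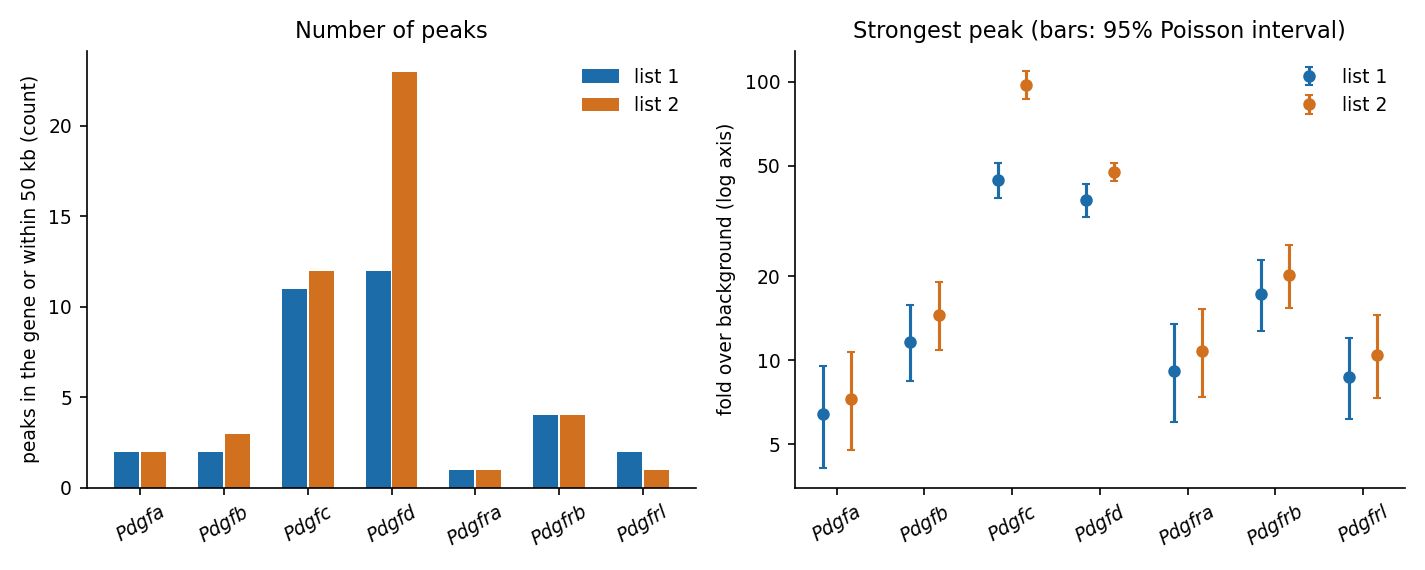
Left, number of peaks in each PDGF gene or within 50 kb of it in list 1 (blue) and list 2 (orange). Right, fold over background of the peak with the highest −log10 q of each gene on a log axis, with exact Poisson 95% intervals: Pdgfc and Pdgfd lie between 37.5 and 97.3-fold, and the other 5 genes between 6.40 and 20.2-fold.

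The strongest site of a gene is its peak of highest −log10 q. Ranked by the fold of that site, the genes had the same order in both lists. Pdgfc led with 44.3-fold in list 1 and 97.3-fold in list 2, followed by Pdgfd with 37.5-fold and 47.5-fold. Next came Pdgfrb with 17.3-fold and 20.2-fold and Pdgfb with 11.7-fold and 14.6-fold. Pdgfra had 9.18-fold and 10.8-fold, Pdgfrl 8.76-fold and 10.5-fold, and Pdgfa 6.40-fold and 7.28-fold. The intervals of neighbours in this order overlapped except for Pdgfd and Pdgfrb in both lists and for Pdgfc and Pdgfd in list 2. These intervals take the background as fixed. It was 4.71 in list 1 and 13.0 in list 2 at the Pdgfd sites, and 3.11 and 1.87 at the Pdgfc site. Ranked by −log10 q instead, Pdgfd stood above Pdgfc, with 259.7 against 240.0 in list 1 and 846.9 against 482.1 in list 2. For Pdgfa the strongest site was a different one in each list, and for Pdgfd too.

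Pdgfc encodes the ligand chain of PDGF-CC, which acts through the alpha receptor. The gene (Gene ID 54635) spans chr3:81036416-81214040 on the plus strand. Its promoter window and that of Pdgfra are shown because these genes had the sites nearest to a start among the ligands and among the receptors whose start is in the RefSeq promoter table (GRCm38.p6). Each run holds the 250 bases before the start, with any match of the TEAD core motif GGAATG, on either strand, in capitals.
Pdgfc chr3:81036166-81036415 (plus strand): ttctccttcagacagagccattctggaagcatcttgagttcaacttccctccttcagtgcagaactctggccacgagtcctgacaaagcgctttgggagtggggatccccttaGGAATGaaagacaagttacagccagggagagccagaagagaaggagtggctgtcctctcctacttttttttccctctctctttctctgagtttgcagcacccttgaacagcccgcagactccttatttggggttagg
Pdgfra chr5:75152001-75152250 (plus strand): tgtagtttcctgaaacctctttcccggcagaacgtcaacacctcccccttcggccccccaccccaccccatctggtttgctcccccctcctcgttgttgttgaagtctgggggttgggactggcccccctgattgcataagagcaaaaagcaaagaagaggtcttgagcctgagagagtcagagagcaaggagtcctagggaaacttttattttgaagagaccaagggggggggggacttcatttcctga

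The Pdgfc window held 1 match of GGAATG, beginning 137 bases before the start, and 1 of its reverse complement CATTCC, beginning 38 bases after it. At least 1 such match was found in 14.6% of the 32619 promoter windows of the table, which run from 250 bases before to 50 after a start, and at least 2 in 1.34%. The windows of Pdgfra and Pdgfd and both windows of Pdgfa held none, and none of these 5 windows held the AP-1 motif TGANTCA, which was in 7.85% of all windows. The promoters of Pdgfb, Pdgfrb and Pdgfrl were not searched. No peak of either list overlapped any of these 5 windows, against 1.81% and 1.69% of all windows overlapped in list 1 and list 2. The letters describe the windows and say nothing of binding there. The peaks themselves could not be searched for motifs, since no genome sequence was used.

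Sites of Pdgfc of at least 10-fold lay before the gene and at a lone position deep within it. Weaker sites lay before, within and just beyond the gene. The strongest site lay 7.81 kb before the start, at chr3:81028121-81029465 in list 1 and chr3:81028190-81029183 in list 2. It held 181 ChIP fragments over a background of 3.11 in list 1, or 44.3-fold (38.1 to 51.2), and 278 fragments over 1.87 in list 2, or 97.3-fold (86.3 to 109.4). It ranked 72 in list 1 and 28 in list 2 by −log10 q among all peaks. The summits of the lists were 3 bp apart.

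At this Pdgfc site both terms of the fold differed between the lists. The fragment number in list 1 was 0.651 times that in list 2 (exact 95% interval 0.537 to 0.788), while the median over all 15015 pairs of shared peaks was 0.867. The background of 1.87 in list 2 was the lowest value of that list, whereas list 1 had 3.11 against a lowest value of 1.72. The log2 ratio of folds, list 1 over list 2, was -1.14. Of all shared pairs 3.56% had a ratio that low or lower.

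The second of the strong Pdgfc sites lay inside the gene, 127.9 kb after the start, at chr3:81163781-81164768 in list 1. It had 105 fragments in list 1 and 109 in list 2, with folds of 38.9 (31.9 to 47.0) and 38.4 (31.6 to 46.2). The third lay 4.16 kb before the start, with 51 and 57 fragments and folds of 18.2 (13.6 to 23.8) and 18.5 (14.1 to 23.9). At both of these sites the lists differed by less than their counting intervals.

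The other Pdgfc sites were weak. Sites called in both lists lay 18.5, 5.99 and 2.13 kb before the start (1.59 kb for the last in list 1). They also lay 3.17, 22.3 and 64.4 kb after the start (65.0 kb for the last in list 2), and 1.78 kb beyond the 3′ end of the span. Their folds ran between 3.35 and 8.02 in list 1 and between 4.78 and 8.48 in list 2. A site 87.4 kb after the start was called in list 1 alone (4.10-fold), and sites at 17.6 kb (3.70-fold) and 102.7 kb (3.84-fold) in list 2 alone. No other protein-coding gene held a Pdgfc site, and the nearest to any of them was the predicted gene Gm29808, 16.3 kb from the site farthest before the start. Beyond the window, the next peak lay 152.6 kb from a gene end in list 1 and 110.0 kb in list 2.

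**Figure D2:**
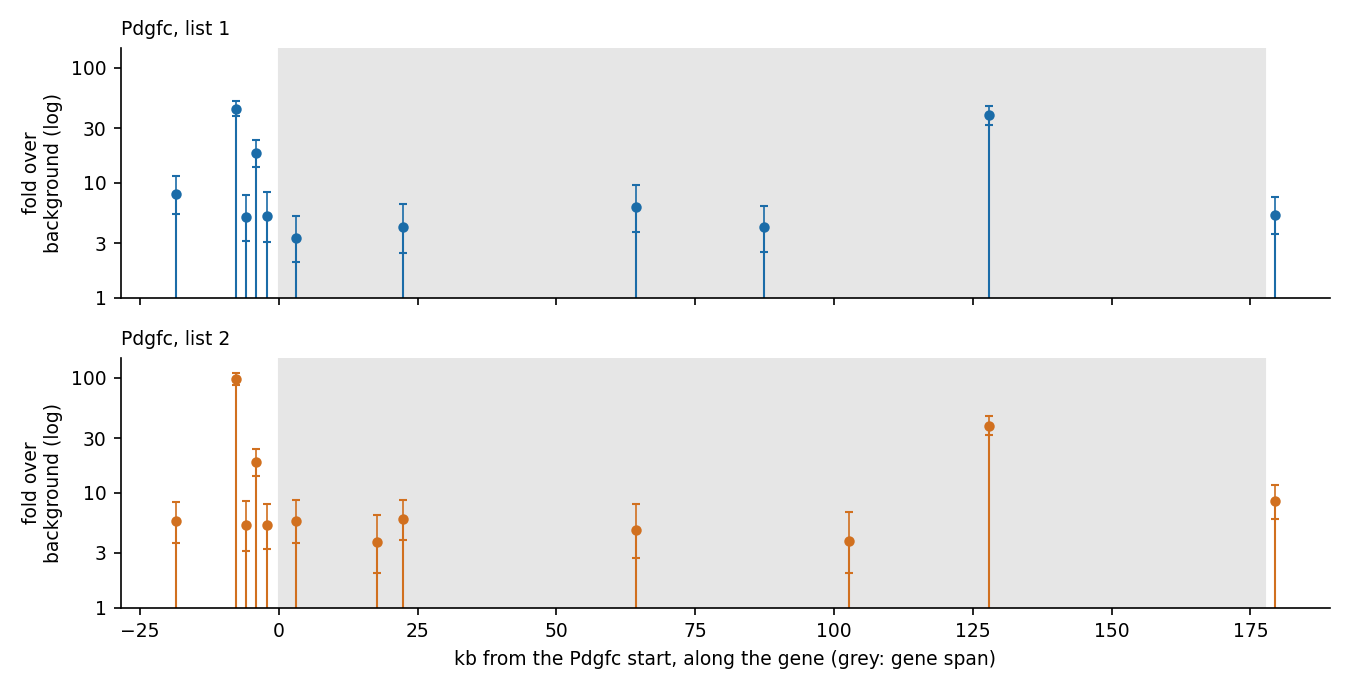
Sites of Pdgfc by distance from its start along the gene (kb, negative before the start) and fold over background (log axis), list 1 above list 2, with exact Poisson 95% intervals; grey marks the gene span. Sites at −7.81, −4.16 and 127.9 kb exceed 15-fold in both lists and all others stay under 9-fold.

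Pdgfd encodes the chain of PDGF-DD, which acts mainly through the beta receptor. The gene (Gene ID 71785) spans chr9:6168363-6534284 on the plus strand and holds the small gene Ddi1, a retroviral-type aspartic protease gene, within its span. It lies in a stretch of chromosome 9, 5500001 to 9000000, in which the recovered background was raised in both lists. At the Pdgfd sites the median background was 4.78 fragments in list 1, or 2.77 times the lowest background of that list, and 10.7 in list 2, or 5.72 times. The other peaks of the stretch had 2.71 and 5.87 times. The cause of the raised background and its part in the values of Pdgfd were not tested.

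Of the Pdgfd peaks 6 of 12 in list 1 and 7 of 23 in list 2 reached a fold of at least 10. Over all peaks 22.9% of list 1 and 28.1% of list 2 reached it, and among the other peaks of the stretch 10% and 8.77%. The site 101.6 kb after the start, at chr9:6269581-6270506 in list 1, lay 3.51 kb from Ddi1. It had 163 fragments and a fold of 19.9 (16.9 to 23.1) in list 1, and 663 fragments and a fold of 47.5 (43.9 to 51.2) in list 2. In list 2 it ranked 4 of all peaks by −log10 q.

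The strongest Pdgfd site of list 1 lay 137.3 kb after the start at chr9:6305370-6306334. It had 213 fragments and 37.5-fold (32.6 to 42.8) in list 1 and 509 fragments and 43.7-fold (39.99 to 47.7) in list 2, with both summits at the same base. The site at 286.3 kb had 216 and 587 fragments and folds of 35.1 (30.6 to 40.1) and 49.5 (45.6 to 53.6). Its peak was 1882 bp wide in list 1 and 2591 bp in list 2, against median widths of 472 and 445 bp over all peaks.

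At 262.1 kb after the Pdgfd start, list 1 had a peak with 197 fragments (26.2-fold, 22.7 to 30.2) and list 2 one with 498 (43.1-fold, 39.4 to 47.1). The list 2 peak was 2701 bp wide and also covered a second list 1 peak of 40 fragments (7.78-fold). The site at 167.9 kb had a fold of 19.9 in list 1 and 23.9 in list 2. The site at 372.0 kb, which is 6.25 kb beyond the 3′ end of the span, had 21.3 and 25.5. The site at 109.3 kb had 46 fragments and a fold of 5.06 in list 1, and 196 fragments and a fold of 12.6 in list 2. These 7 sites held every Pdgfd peak of at least 10-fold.

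**Figure D3:**
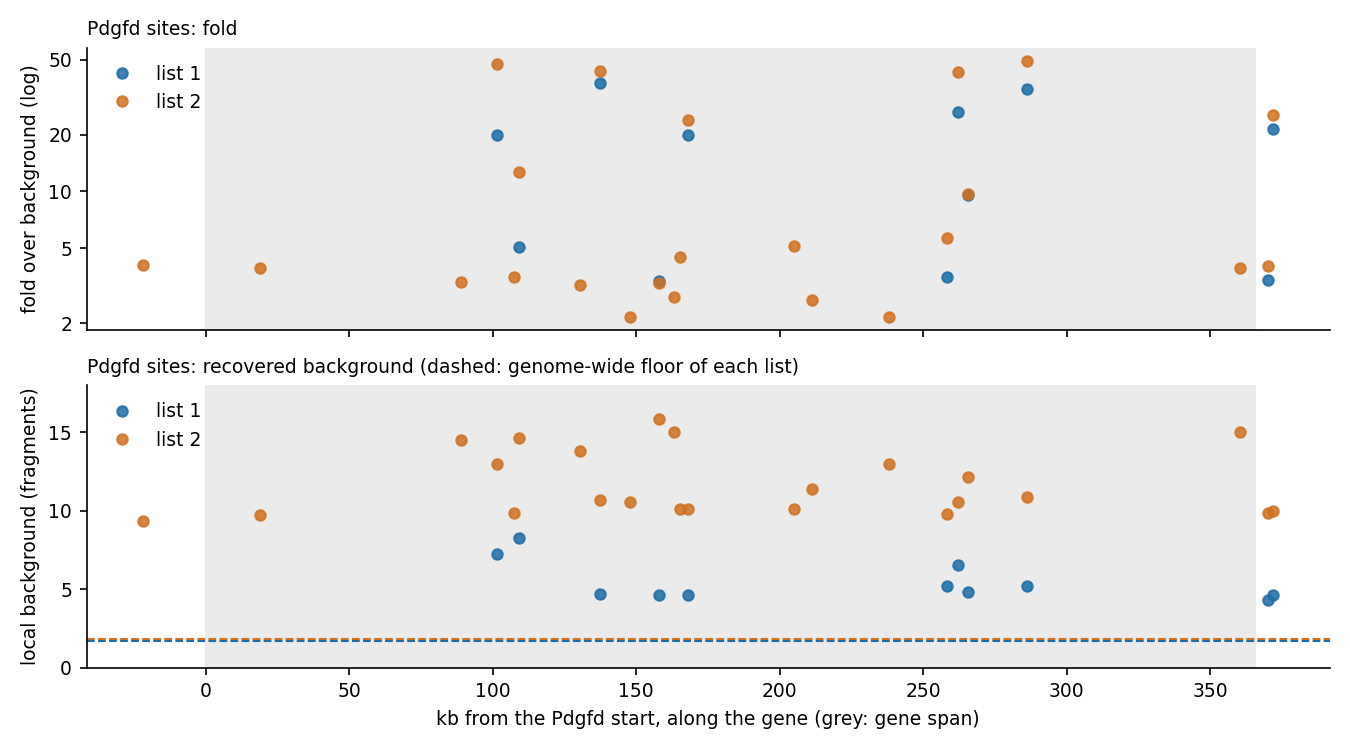
Sites of Pdgfd by distance from its start along the gene (kb); above, fold over background (log axis), and below, the recovered local background in fragments, with the genome-wide lowest background of each list dashed. Backgrounds run from 4.27 to 8.30 in list 1 (blue) and from 9.36 to 15.8 in list 2 (orange), and 12 sites appear in list 2 alone, none above 5.11-fold.

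The 12 Pdgfd sites called in list 2 alone were weak in fold and yet rested on many fragments. Their folds ran between 2.14 and 5.11, with 24 to 62 fragments. A fold under 4 was seen at 10 of 23 Pdgfd peaks of list 2, or 43.5%. The other peaks of the stretch had 49.1% and peaks outside it 9.71%. Every Pdgfd peak of list 1 overlapped a list 2 peak, and 47.8% of those of list 2 overlapped a list 1 peak, against 96.7% of the other list 1 peaks and 50.9% of the other list 2 peaks of the stretch.

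The Pdgfd sites found in both lists had fewer fragments in list 1 throughout. At 9 of the 11 such sites the ratio of fragments, list 1 over list 2, lay between 0.333 and 0.437, and the background in list 2 was 1.62 to 3.39 times that in list 1. The other two, at 101.6 and 109.3 kb, had ratios of 0.246 (0.206 to 0.292) and 0.235 (0.166 to 0.325), with backgrounds 1.79 and 1.76 times as high in list 2. The interval of the site at 101.6 kb lay below that of 6 of the 9 sites, and that of the site at 109.3 kb below 4 of 9. These sites were singled out after their values were seen. The remaining 4 sites of both lists, at 157.9, 258.3, 265.7 and 370.2 kb, had folds between 3.35 and 9.58 in list 1 and between 3.27 and 9.64 in list 2.

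Pdgfa and Pdgfb encode the classical chains. Pdgfa (Gene ID 18590) spans chr5:138976014-139000792 on the minus strand. Its only site in both lists lay 3.35 kb after the nearest start of the RefSeq promoter table in list 2, at chr5:138990621-138991138 in list 1, with 15 fragments and a fold of 5.21 (3.06 to 8.37) in list 1 and 24 fragments and a fold of 7.28 (4.77 to 10.7) in list 2. List 1 alone had a site 15.9 kb before a start (6.40-fold, 22 fragments), which was nearer to Prkar1b, a regulatory subunit gene of protein kinase A, at 6.45 kb. List 2 alone had a site 4.57 kb after a start (5.93-fold, 16 fragments). The intervals of the lists overlapped at the shared Pdgfa site.

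Pdgfb (Gene ID 18591) spans chr15:79995865-80024614. Its strongest site lay 13.2 kb from the nearer end of the span, at chr15:80037401-80037887 in list 1, with 41 fragments and a fold of 11.7 (8.47 to 15.8) in list 1 and 50 fragments and a fold of 14.6 (10.9 to 19.1) in list 2. A second site in both lists lay 43.8 kb away and inside Cbx7, a Polycomb gene, with 27 and 44 fragments and folds of 9.45 and 13.7. The only summit inside Pdgfb was in list 2, 2.55 kb from an end, with 15 fragments and a fold of 3.77 (2.21 to 6.06). The window edge mattered for this gene: a further peak of each list lay 54.0 kb from the span (3.67-fold and 7.82-fold), just outside the 50 kb, and the site at 43.8 kb was the farthest inside it.

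Pdgfra encodes the alpha receptor. The gene (Gene ID 18595) spans chr5:75151322-75198206 on the plus strand and had a single site, the same in both lists. It lay 5.06 kb after the start, at chr5:75157055-75157510 in list 1 and chr5:75157022-75157518 in list 2, with summits 8 bp apart. List 1 had 24 fragments there over a background of 1.72, or 9.18-fold (6.01 to 13.5), and list 2 had 30 over 1.87, or 10.8-fold (7.41 to 15.3). Both backgrounds were the lowest of their list. No further peak was called within 189.9 kb of the Pdgfra span in list 1 or 163.8 kb in list 2.

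Pdgfrb encodes the beta receptor. The gene (Gene ID 18596) spans chr18:61045127-61085067. Its strongest site in the window lay 34.6 kb from the span in list 1 and inside Slc6a7, a proline transporter gene, at chr18:61010125-61011018 in list 1. It had 46 fragments and a fold of 17.3 (12.7 to 22.9) in list 1 and 58 fragments and a fold of 20.2 (15.4 to 26.0) in list 2. Inside the gene itself, a site 13.0 kb from an end, at chr18:61071942-61072511 in list 1, had 40 fragments and a fold of 8.86 (6.39 to 12.0) in list 1 and 33 fragments and a fold of 10.8 (7.57 to 15.1) in list 2. This was the only site inside Pdgfrb called in both lists, and it was also the strongest site within 50 kb of the neighbour Csf1r, the receptor gene for colony stimulating factor 1.

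Near the low-coordinate end of the Pdgfrb span, each list had a weak peak at a different place. List 1 had 10 fragments 1.14 kb from the end of the span (4.04-fold, 2.13 to 7.12), and list 2 had 14 fragments 1.51 kb from it (4.95-fold, 2.86 to 8.08). The intervals overlapped, and the peaks did not overlap each other. The predicted gene Gm52351 lay nearly as close, 1.55 kb from the list 1 summit and 1.92 kb from the list 2 summit. The remaining Pdgfrb sites were in a single list each, at 4.18-fold inside Csf1r in list 1 and at 7.33-fold inside Slc6a7 in list 2.

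Pdgfrl encodes a protein that resembles the ligand-binding part of the PDGF receptors and lacks a kinase domain. The gene (Gene ID 68797) spans chr8:40926233-40990782. Its shared site lay inside the span, 4.33 kb from an end, at chr8:40930388-40930874 in list 1, with 35 fragments and a fold of 8.76 (6.17 to 12.1) in list 1 and 33 fragments and a fold of 10.5 (7.32 to 14.6) in list 2. List 1 alone had a second site of 20 fragments (7.71-fold), 31.3 kb away and inside Slc7a2, a transporter gene for cationic amino acids.

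The lists were then compared at the PDGF genes as a set. Of the list 1 peaks 29 of 34 overlapped a list 2 peak, or 85.3% (exact Clopper-Pearson interval 68.9 to 95.05), against 70.9% of all list 1 peaks. Of the list 2 peaks 28 of 46 overlapped a list 1 peak, or 60.9% (45.4 to 74.9), against 71.4% of all list 2 peaks. Without Pdgfd the shares were 77.3% and 73.9%. Peaks of 1 gene share their locus, so these intervals are too narrow, and no test of the difference was made.

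At the 28 shared sites the fold was lower in list 1 than in list 2 at 24, or 85.7%, against 61.7% of all shared pairs. The median log2 ratio, list 1 over list 2, was -0.26 at these sites and -0.15 over all pairs. The 17 sites outside Pdgfd also had a median of -0.26. Of the 28 sites Pdgfc held 10 and Pdgfd 11. Sites of 1 gene share their locus and are not independent, and no test was made. The summits were a median of 15 bp apart at the shared PDGF sites, 5 bp at Pdgfd, and 25 bp over all pairs. The 18 sites of list 2 alone had a median of 3.802-fold and the 5 of list 1 alone a median of 4.18-fold, while the 28 shared sites had medians of 9.02-fold in list 1 and 10.8-fold in list 2.

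**Figure D4:**
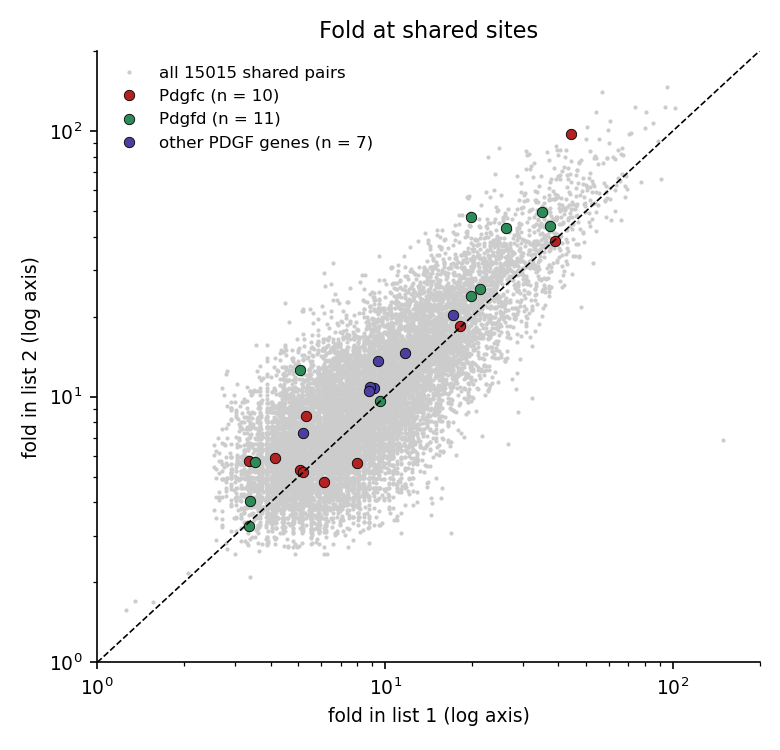
Fold in list 1 against fold in list 2 (log axes) at all 15015 pairs of shared peaks (grey) and at the 28 shared PDGF sites (coloured by gene); the dashed line marks equal folds. Of the PDGF sites 24 lie above the line, and of them the Pdgfc site at 44.3 and 97.3-fold lies highest.

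**Figure D5:**
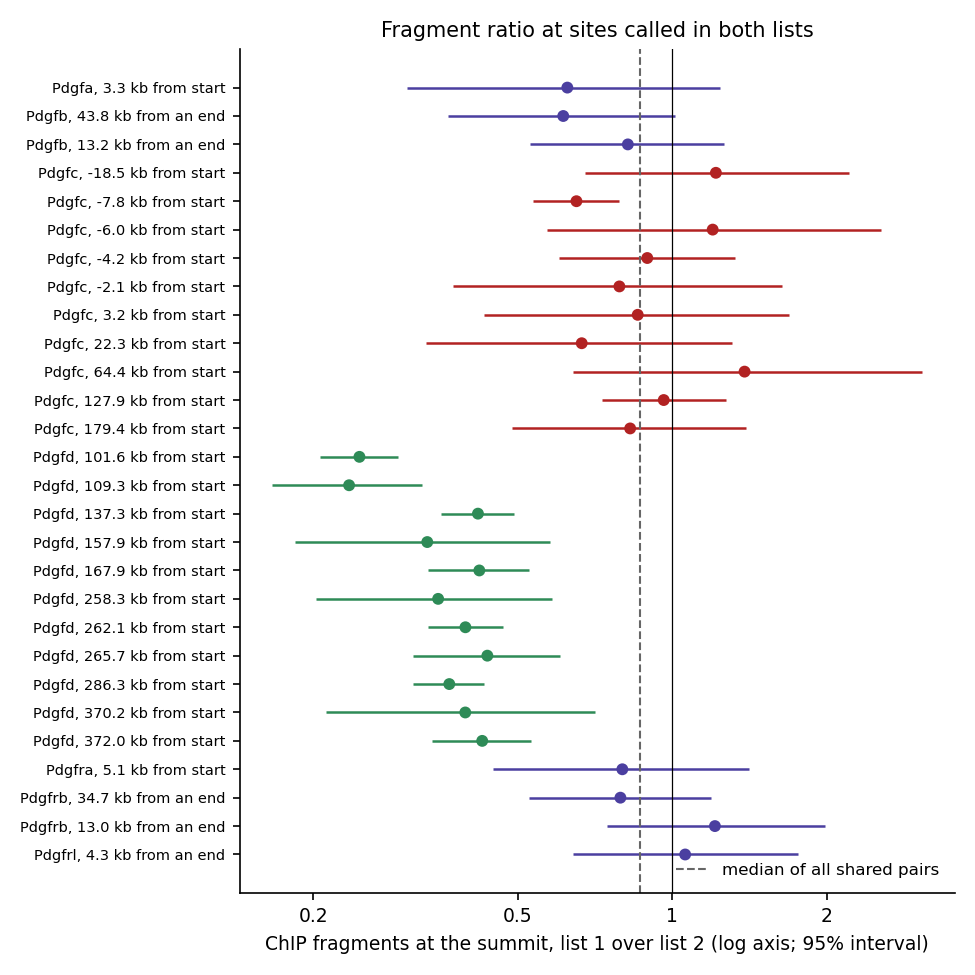
Ratio of ChIP fragments at the summit, list 1 over list 2 (log axis), with exact 95% intervals, at the 28 PDGF sites called in both lists; the dashed line is the median of all shared pairs, 0.867. All 11 Pdgfd sites lie at or below 0.437, and of the other 17 only the Pdgfc site at −7.81 kb has an interval wholly below the dashed line.

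By a fixed rule, genes were also ranked by how close the folds of their strongest site came to those of Pdgfd, the member with the highest −log10 q. The measure was the distance between log2 folds over the 2 lists. For Pdgfd these folds came from different sites, 137.3 kb after the start in list 1 and 101.6 kb after it in list 2. No single Pdgfd site had both. Ddi1 was at 0, since it was assigned the same peaks. Runx2, a transcription factor gene of bone, followed at 0.012 (37.6-fold in list 1 and 47.8-fold in list 2), and then Atp2b1, a calcium pump gene, at 0.042 (38.3-fold and 46.6-fold).

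Other genes of the pathway were described from 4 lists with 69 genes, all of which matched the gene table. A site was found near 56 of them in list 1 and 57 in list 2, or 81.2% and 82.6%, against 58.2% and 59.0% of all protein-coding genes. Their median span was 52.8 kb against 17.3 kb. Sites in both lists were found near 52 of the 69 genes, against 11295 of all 21631 protein-coding genes, or 52.2%. No site in either list was found near 8 of the 69, against 7582 of the 21631.

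Of 9 genes that process or bind PDGF ligands, 7 had a site in each list. Lrp1, an endocytic receptor that associates with the beta receptor, had a site of 23.1-fold in list 1 and 56.2-fold in list 2. That site had 154 fragments over a background of 5.70 in list 1 and 192 over 2.44 in list 2. Nrp1, encoding the coreceptor neuropilin-1, had 19.8-fold and 13.0-fold. Plau, the urokinase gene whose product can activate PDGF-DD, had 12 and 10 peaks. Its strongest sites, of 13.4-fold and 19.1-fold, lay at different positions, 31.5 kb and 5.32 kb outside its span. St14, encoding the protease matriptase, and A2m, encoding a plasma protein that binds PDGF, had no site.

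Among 35 transducers acting at or below the receptors, 29 had a site in list 1 and 27 in list 2. Src, the kinase gene, had 48.5-fold and 62.8-fold. Pik3cb, a catalytic subunit of phosphoinositide 3-kinase, had 28.7-fold and 67.3-fold, below Src in list 1 and above it in list 2. The list 2 intervals overlapped, at 58.2 to 77.5 for Pik3cb and 54.8 to 71.7 for Src. Crk, an adaptor that binds the activated receptors, had 20.2-fold and 33.5-fold at a site 28.7 kb outside its span. Those without a site in either list included the adaptor gene Crkl, the phospholipase gene Plcg1, the kinase gene Map2k2 and the transcription factor gene Stat5a.

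Negative regulators had a site in 9 of 11 cases in list 1 and 11 of 11 in list 2. Lrig1, a transmembrane inhibitor of receptor tyrosine kinases, had 52.4-fold and 64.9-fold at a site 42.8 kb outside its span. Cblb, a ubiquitin ligase, had 19.8-fold and 16.4-fold. Socs3, an inhibitor of cytokine signalling, had 17.6-fold and 17.8-fold at different positions, 19.7 kb and 45.6 kb outside its span.

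Of 14 VEGF ligands and related receptor tyrosine kinase genes, 11 had a site in list 1 and 12 in list 2. Csf1r is counted in both lists, and its only list 2 peak is the peak inside Pdgfrb described above. Pgf, the placental growth factor gene, had 47.7-fold and 21.7-fold at a site 39.5 kb outside its span, the reverse of the order at Pdgfc. That site had 129 fragments over a background of 1.72 in list 1 and 109 over 4.06 in list 2. Csf1, the ligand gene of the Csf1r receptor, had 15 and 20 peaks, with a strongest site of 27.0-fold and 44.0-fold 34.8 kb outside its span. Kitl, the ligand gene of the Kit receptor, had 18.7-fold and 19.3-fold at a site 35.3 kb outside its span. Kit, the receptor gene that follows Pdgfra on chromosome 5, had no site in either list. Kdr, the VEGF receptor gene beyond it, had 12.9-fold and 16.1-fold at its strongest site, 11.3 kb outside its span.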

How the data were processed

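Per the submitters' processing notes, the tools were Trimmomatic 0.33, Bowtie 1.1.2 and MACS2. The sources used here give no MACS2 version or settings and do not say whether duplicate reads were removed. Each of the 2 deposited lists has no header and comes from a calling against input. It gives per peak the authors' score (10 times −log10 q, cut to a whole number), the fold (the ratio of the ChIP pileup to the local background, with 1 added to both), and the authors' −log10 p and −log10 q.

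Although mm39 is the build in those notes, the coordinates were read as GRCm38. As a check, 1157 summits of list 1 and 1089 of list 2 lay within 1 kb of a GRCm38.p6 gene start as they stood, against at most 676 and 658 after 10 shifts of up to 100 kb. No coordinate was converted.

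ChIP fragments and background were solved from fold and p (Python 3.11.15, scipy 1.17.1) after a test on simulated data. Solved fragment numbers lay within 0.02 of a whole number in all but 2 peaks of each list. The lowest background was 1.72 fragments in list 1 and 1.87 in list 2, and the fewest fragments at a summit were 8. Library totals are not in the lists. A shared peak overlaps one of the other list by 1 bp or more, and pairs were each other's longest overlap. The stretch of chromosome 9 is the run of 500 kb bins around Pdgfd whose median background was at least 2 times the lowest in both lists.

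Distances run to the ends of the RefSeq gene span, or to starts from the RefSeq promoter table (4 of 7 genes matched). No test between lists or gene sets was made. The members and gene lists were chosen with earlier results of these data known. Sites named were the strongest by −log10 q, the nearest to a gene end and those of at least 10-fold, and in each pathway list the 3 genes of highest −log10 q in list 1. The nearest protein-coding neighbours and the 3 genes most like Pdgfd could also be named. Other sites, pathway genes without a site and Kdr were named after their values were seen. Alternatives varied the window, the threshold on peaks, the overlap and the chromosome 9 stretch.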

Additional observations from a re-analysis of the deposited data

How the results depend on the processing

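No paired analysis was possible because each genotype had 1 ChIP library and neither list is tied to a genotype. Motif searches around summits with windows of 100 or 50 bases were not run, as no genome sequence was used. Of 119 alternative values of the main results, 100 stayed within 1.5 times the count or within the counting interval of the fold or share. Some of the 100 could not move, such as the folds of genes off chromosome 9 when its stretch was left out. A gene left without a site under a setting gave no fold and is not among the 119. The count is therefore no measure of robustness. With summits in the span only, peaks of the PDGF genes numbered 20 in list 1. In list 1 and list 2, 19 and 17 of 35 transducers and 6 and 6 of 14 VEGF and related genes held a site. Over all protein-coding genes the shares in that setting were 20.7% and 20.8%. With the 5000 strongest peaks of each list, the PDGF genes had 15 and 14 peaks, and 4 of 7 members had a site in list 2. Under that setting sites were found near 17 and 13 transducers, 3 and 3 negative regulators, and 7 and 6 VEGF and related genes, against 24.6% and 24.4% of all protein-coding genes. Without the chromosome 9 stretch 22 and 23 peaks were left, since all Pdgfd peaks lie in it. With summits within 10 kb, the strongest Pdgfrb site became the one inside the gene (8.86-fold and 10.8-fold), and that of Pdgfb in list 2 the weak one inside the gene (3.77-fold), while Pdgfb had no site in list 1. A site called in a single list is not shown to be absent from the other.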
